A study of Mus musculus with 12 samples.

Results

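The baseline transcriptome of untreated WT NE-4C cells was described from the 3 RNA-Seq libraries labelled as WT and not treated (WT NO), out of 12 libraries in the series. They were chosen by these labels alone, and no group was compared with another. The other 9 libraries, 3 each of WT cells given all-trans retinoic acid (RA, 1 µM for 24 h, collected on day 3), of Faf2 KO cells without RA and of Faf2 KO cells given RA, were not used for the levels below. NE-4C is a mouse cell line that was started from embryonic day 9 brain and is immortal because it lacks p53. The WT cells are unedited cells of this line, grown in MEM with fetal bovine serum, and the 3 WT NO libraries came from 3 separate passages, so the spread between them is that of passages of a single line. Neither age nor strain beyond the origin of the line is given in the sources used here.

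Neural progenitors of the early brain divide in an epithelium, keep Sox2, Sox3, Nes and Vim on, and take regional identity from homeobox factors such as Otx2, Pax6 and the Hox genes before proneural bHLH factors start neuron formation. The pluripotent epiblast from which they descend depends on Pou5f1 (Oct4) and Nanog, and Nodal signalling with its co-receptor Tdgf1 and the factor Foxh1 patterns that tissue. Levels are given as counts per 1000000 of each library's total (CPM). The deposited counts are scaled by gene length, so CPM values may be compared between genes. They carry no further scaling between libraries. All values in CPM below are levels on this per-length scale and are listed in the order of WT NO replicates 1, 2 and 3. Means are given ± SD with n = 3.

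A gene was counted as expressed when it had 1 CPM or more in every one of the 3 libraries. It was counted as not detectable when it had at most 3 deposited counts in every library, which corresponded to 0.109, 0.119 and 0.110 CPM, and as low in between. Of 21664 protein-coding genes, 10682 (49.3%) were expressed and 7080 (32.7%) were not detectable. These shares are the background for every list below. In all, 11719 of 57010 genes in the table were expressed, among them 353 long noncoding RNAs, and 33374 genes were at 0 in all 3 libraries. The library totals were 27513718, 25189054 and 27196354 counts. In bulk RNA, few cells with a transcript and little of it in every cell cannot be told apart.

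WT NO replicate 3 stood apart from the other two. Of the 10682 expressed protein-coding genes, 160 (1.5%) differed by more than 2-fold between replicates 1 and 2, against 1336 (12.5%) between 1 and 3 and 1281 (12%) between 2 and 3. More than 2-fold above both other libraries in replicate 3 were 687 genes, and more than 2-fold below both were 225. The median difference of a gene in size was 0.16 on the log2 scale between replicates 1 and 2, and 0.39 and 0.38 in the pairs with replicate 3. For this reason each level is given for every library. The named genes of 1 CPM or more whose mean fell by more than 1.5 times without a library are listed at the end. This limit marks genes that were high in the library left out, not genes that were low in it. TMM factors, which scale libraries by the bulk of their genes, were 1.03, 1.07 and 1.21, so that such scaling would lower the values of replicate 3 most.

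**Figure D1:**
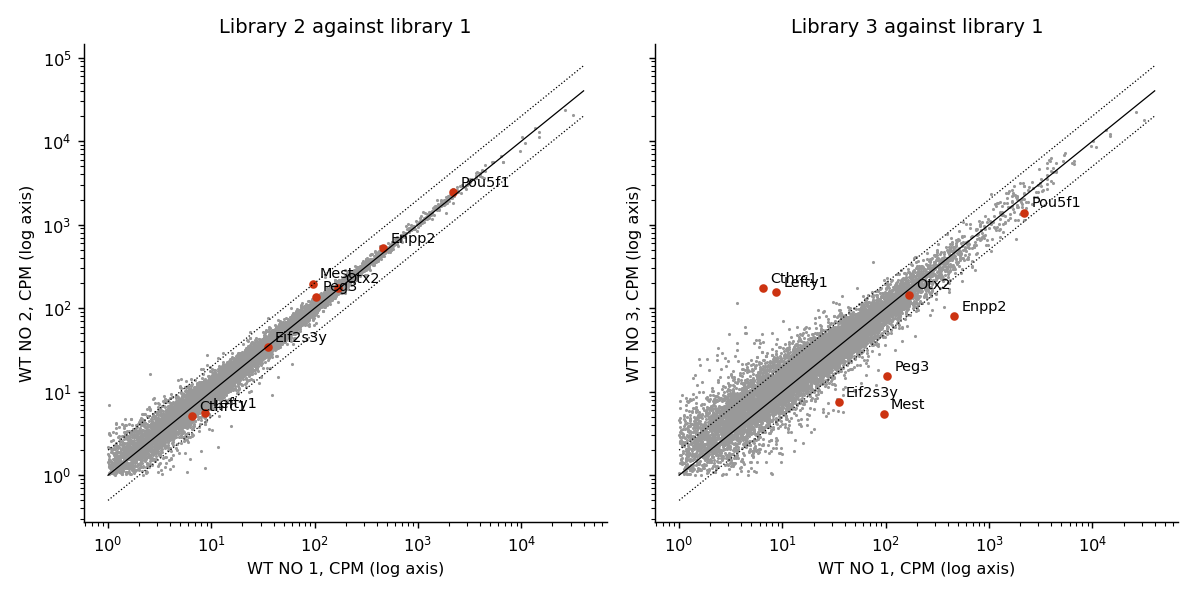
Levels of the 10682 expressed protein-coding genes in WT NO replicate 2 (left) and replicate 3 (right) against replicate 1, in CPM on log axes. Each grey point is a gene, the solid line marks equal levels and the dotted lines a 2-fold difference, which 1.5% of genes exceeded on the left and 12.5% on the right.

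The genes that set replicate 3 apart were named by their coefficient of variation (CV, the SD in percent of the mean) over the 3 libraries. All of the 10 protein-coding genes with the largest CV at a mean of 10 CPM or more were highest in replicate 3. Cthrc1, a secreted protein of the matrix, had 6.52, 5.05 and 174 CPM. Cyba, a subunit of the NADPH oxidase, had 3.61, 4.17 and 115 CPM, and Lefty1, a secreted antagonist of Nodal, had 8.73, 5.5 and 156 CPM. Without replicate 3 the means of these 3 genes were 5.78, 3.89 and 7.11 CPM. Lefty1 has a close copy, Lefty2, between which reads may be split, and Lefty2 had 1.44, 0.335 and 18 CPM. The other members of the 10 were Tubb4a, which was low in replicate 2, Anxa2, Hspb8, Mfap4, Upp1, Gas6 and Aldoc, whose highest mean without replicate 3 was 4.01 CPM, in Upp1.

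Summed markers of other cell types were higher, lower or similar in replicate 3, depending on the list. Lower sums included those of mature neurons (122, 120 and 71.9 CPM) and of choroid plexus (144, 143 and 41.6 CPM). The 9 markers of pericytes and smooth muscle summed to 26.9, 9.26 and 112 CPM, led by the contractile genes Tagln (11.5, 2.19 and 55.9 CPM) and Acta2 (8.59, 1.22 and 37.7 CPM). The 12 astroglial markers summed to 17.1, 17.8 and 58.9 CPM. Aldoc, which is also an enzyme of glycolysis, had 2.36, 3.27 and 33.4 CPM of these sums. In this list Gfap was not detectable and Aqp4 was at 0 in all libraries. The 13 endothelial markers summed to 6.17, 6.21 and 6.86 CPM, with Cdh5 not detectable and Tie1 at 0, but single members moved against each other, with Flt1 at 5.37, 5.43 and 2.12 CPM and Kdr at 0.333, 0.237 and 2.41 CPM. The 23 neural progenitor markers summed to 1021, 1096 and 1013 CPM, with Vim and Nes highest and Sox2 and Sox3 lowest in replicate 3. The part of these genes in the spread of other genes was not tested.

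Most of the message in the cells belonged to a small number of genes. The 10 most abundant genes held 15.0%, 12.7% and 12.4% of the counts of each library, and the 100 most abundant held 41.3%, 39.2% and 39.8%. A share of 50% of all counts lay in 178, 202 and 207 genes. Cytosolic ribosomal proteins and the mitochondrial genome together held 31.8%, 30.3% and 31.6%. Expressed protein-coding genes with a mean of 1000 CPM or more numbered 133, against 1191 from 100 to 1000 CPM, 6003 from 10 to 100 CPM and 3355 under 10 CPM. The median CV fell over these classes, from 26.3% in the lowest to 12.3% in the highest. Over replicates 1 and 2 alone it was 12.6% in the lowest and 4.15% in the highest.

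Of the classes of abundant genes, cytosolic ribosomal proteins were the largest, with 18.2%, 19.4% and 21.0% of the counts (mean 19.5% ± 1.37), and 84 of their 88 genes were expressed. The mitochondrial genome held 13.6%, 10.8% and 10.6% (mean 11.7% ± 1.65), with the highest value in replicate 1. Translation factors held 3.84% ± 0.160, splicing and RNA binding proteins 2.94% ± 0.231, and chaperones with peptidyl isomerases 2.67% ± 0.0952. The nuclear genes of the respiratory chain held 2.09% ± 0.104, of which 91 of 99 were expressed. Cytoskeletal genes held 1.72% ± 0.151, the proteasome and ubiquitin genes 1.58% ± 0.0114, and glycolytic enzymes 1.47% ± 0.0437. Mitochondrial ribosomal proteins, all 78 of them expressed, held 0.649% ± 0.0305. Histone genes held 0.295% ± 0.0231 with 26 of 142 expressed, in libraries made from polyadenylated RNA, which most histone messages of dividing cells lack.

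**Figure D2:**
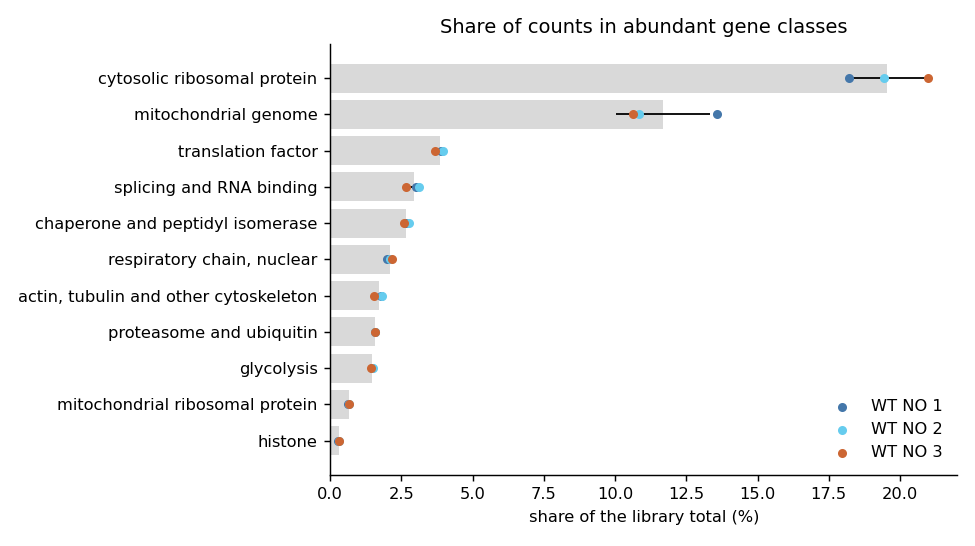
Share of each library's counts in 11 classes of abundant genes, in percent. Bars are means, error bars are SD over the 3 WT NO libraries and points are the libraries. Ribosomal proteins and the mitochondrial genome exceed every other class in all 3 libraries.

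Of the 30 most abundant genes, 12 encode cytosolic ribosomal proteins and 9 lie in the mitochondrial genome. The highest by mean was mt-Co1, the first subunit of cytochrome c oxidase, with 26628, 23674 and 22607 CPM. Next came mt-Atp8, which overlaps mt-Atp6 in the annotation so that reads of this pair are uncertain, with 31602, 20613 and 17899.8 CPM. Eef1a1 (ENSMUSG00000037742, chromosome 9, 78384916 to 78396778), which brings aminoacyl-tRNA to the ribosome, was the highest nuclear gene, with 13505, 14292 and 13740.5 CPM, a CV of 2.92%. The ribosomal protein genes of this group included Rplp1, Rpl23a, Rps24, Rpl32, Rps27, Rpl41, Rps28, Rps12, Rpl26, Rps15 and Rpl19, from 4076 CPM in Rpl19 to 10450.5 CPM in Rplp1. Many of them have processed copies elsewhere in the genome, and 1 such copy, Rps26-ps1, was itself in the 30 at 4605 ± 967 CPM.

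The remaining members of the 30 came from other classes. Gapdh of glycolysis had 6378, 6549 and 5411 CPM, the nucleolar protein gene Npm1 had 3897, 4133 and 5722 CPM, and Ppia, a peptidyl isomerase, had 3984, 4011 and 4364 CPM. ENSMUSG00000121166, a long noncoding RNA without a symbol (chromosome 5, 89356080 to 89356956), had 5935, 7075 and 2957 CPM, lowest in replicate 3. Gm28661, Gm10222 and Gm28437 are pseudogenes on chromosome 1, between 24651488 and 24654646. All of their 31-base words also stand in the mitochondrial genome of GRCm39, as do those of their neighbour Gm10925. Their counts therefore cannot be told apart from mitochondrial ones. The 4 pseudogenes together held 2.46%, 1.96% and 2.85% of the counts.

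The smallest spread at a mean of 100 CPM or more was in Rangap1 and 9 other genes. Rangap1, which activates the Ran GTPase at the nuclear pore, had 158, 157 and 157 CPM. Ost4, a subunit of the oligosaccharyltransferase, had 173, 174 and 174 CPM, and Rpl7a had 2991, 2972 and 2986 CPM. The others of the 10 were Lrrc59, Pfdn5, Traf4, Csnk2b, Eif4ebp2, Eif3d and Cct2, and the largest CV among the 10 was 1.22%. Among 12 genes often used as references, all expressed, Actb had 2689.9, 2882 and 2139.8 CPM, Hprt had 86.1, 96.6 and 105 CPM and Tbp had 80.9, 77.3 and 60.2 CPM. Faf2 (ENSMUSG00000025873, chromosome 13, 54769596 to 54813238), the gene that the study deleted in its KO line, had 51.6, 41.7 and 43.3 CPM, 45.6 ± 5.3 on average, and ranked 2902 among protein-coding genes. All 13 genes of a list of FAF2 and partners of the p97 ATPase were expressed, with p97 itself, Vcp, at 370.5, 373 and 247 CPM.

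Transcription factors were counted by their families of symbols. Of 1179 factors, 710 (60.2%) were expressed, against 49.3% of all protein-coding genes, and 171 were not detectable. The family of Zfp, Zbtb and Zscan zinc finger genes gave 367 of the 710, and Zfp207, whose product also binds microtubules, was its highest at 291 CPM. Of the other 712 factors, 343 (48.2%) were expressed, 229 were low and 140 were not detectable. The share differed between families. Expressed were 13 of 17 TALE factors, 29 of 39 Smad, Stat and Tcf/Lef factors, 37 of 50 bZIP factors, 18 of 26 Klf and Sp factors and 7 of 11 Gli and Snail factors. The GATA family had 3 of 6, the sine oculis homeobox family 3 of 6 and the Sox family 8 of 19. Among the smaller shares were 3 of 39 Hox genes, 1 of 9 Pax genes, 2 of 12 Lim homeobox genes and 3 of 41 proneural and Olig bHLH factors.

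Pou5f1 (ENSMUSG00000024406, chromosome 17, 35816789 to 35822274), the octamer-binding factor of pluripotent cells, was the most abundant factor. It had 2196, 2446 and 1384 CPM, a mean of 2009 ± 556, lowest in replicate 3. It ranked 51, 51 and 100 among protein-coding genes in the 3 libraries. Its level was 0.817, 0.849 and 0.647 times that of Actb, and 13, 14 and 9.54 times that of Otx2. It made up 17.5%, 18.6% and 13.3% of the summed CPM of the 712 factors. Pou5f1 has processed copies in the mouse genome, and reads from these would be uncertain. The second of the 15 Pou genes, the broadly used Pou2f1, was at 25.7, 30.6 and 21.4 CPM, and 5 of the 15 were expressed.

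Hmga1 (ENSMUSG00000046711, chromosome 17, 27775449 to 27782648), an architectural protein of chromatin that is abundant in embryonic cells, was second, with 1269, 1296 and 712 CPM. It also was lowest in replicate 3. Plagl1, an imprinted zinc finger factor, followed with 332, 365 and 255 CPM, and Atf4, which induces amino acid and stress genes, with 263, 249 and 205 CPM. The levels of Plagl1 and Atf4 overlapped between libraries. From the fifth place on, the ranges of neighbours in the order overlapped as well. Tead2 of the Hippo pathway had 174, 189 and 189 CPM, E2f4 of the cell cycle 194, 193 and 119.6 CPM, and Srebf2, which drives sterol synthesis, 156, 158 and 146 CPM.

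Factors of the epiblast and the primitive streak stood beside factors of the neural plate among the 30 highest. Foxh1, the partner of Smads in Nodal signalling, had 167, 118 and 129 CPM, and T (Brachyury), a T-box factor of early mesoderm, had 85.9, 72.9 and 87.4 CPM. Of factors of the neural plate, Otx2 of the forebrain and midbrain had 168, 175 and 145 CPM and Zic1 185, 195.4 and 102 CPM. The FGF-induced Ets factors Etv5 and Etv4 had 144, 149 and 113 CPM and 145, 164 and 58 CPM, the latter lowest in replicate 3.

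Other factors of the 30 highest were Tfdp1, Nfe2l1, Cebpz, Tcf3, Id1, Smad4, Tfe3, Usf2, Max, Atf1, Tcf12, Ctcf, Hif1a, Mef2d and Jund, with means from 70.1 to 142 CPM. In this group Mef2d spread most, with 82.7, 92.2 and 36.4 CPM, and Tcf3, an E protein that pairs with proneural factors, little, with 105, 99.4 and 96.7 CPM.

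**Figure D3:**
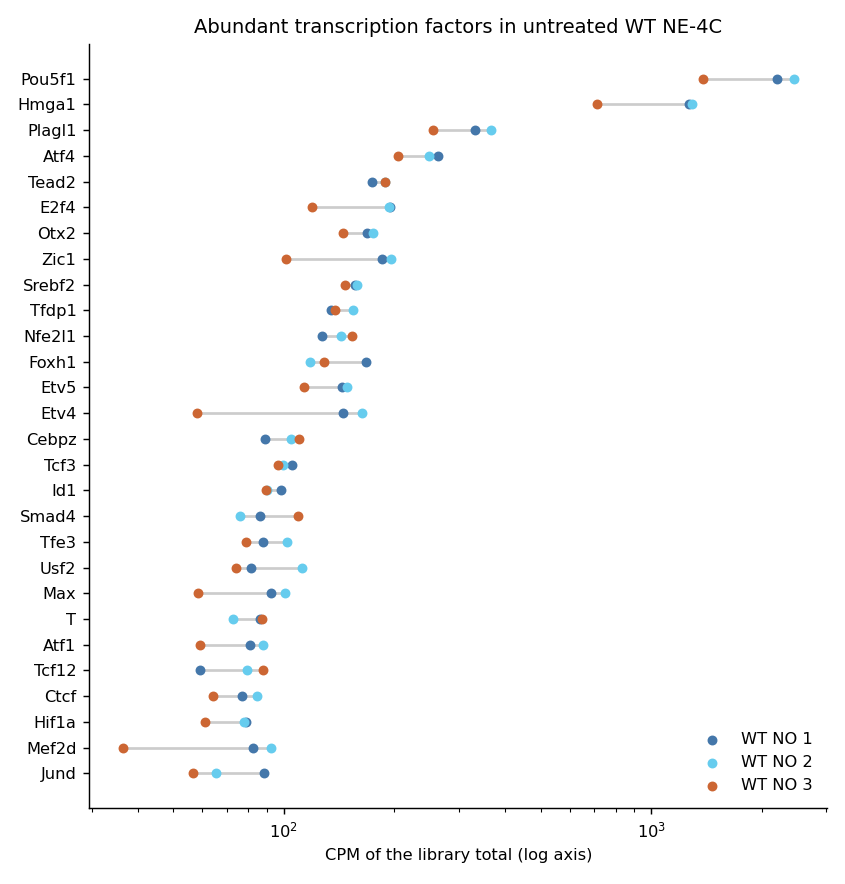
Levels of 28 of the 30 transcription factors of highest mean, without the Zfp, Zbtb and Zscan genes, in CPM on a log axis. Points are the 3 WT NO libraries and grey lines join them. Pou5f1 lies above 1000 CPM in every library and 24 of the 28 lie under 200 CPM in all of them.

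Below the 30 highest, the 2 leading members of each family showed which branches of a family were on. In the Sox family, Sox4 had 54.4, 50.5 and 70.7 CPM and Sox12 68, 57.4 and 40.9 CPM, ahead of Sox3 and Sox2 by mean, though Sox3 was above Sox4 in replicates 1 and 2. In the T-box family, Mga was second to T, with 46.7, 54.6 and 71.5 CPM. Nr5a1, known from steroid-producing tissue and able to bind the Pou5f1 promoter, was the highest of 45 nuclear receptors with 55.1, 61 and 47.6 CPM, followed by the retinoic acid receptor Rara with 51.4, 41.5 and 41.7 CPM. Lef1, which acts in Wnt signalling, had 63.9, 86.8 and 15.7 CPM, and was lowest in replicate 3. Twist1, a bHLH factor of mesenchyme, had 52.5, 41.6 and 20.8 CPM and was the only gene of its family of 41 above 5 CPM on average.

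Other families were led by low levels. The highest of 39 Hox genes was Hoxb13, normally found at the tail end of the body, with 2.79, 8.4 and 25.1 CPM, a mean of 12.1 CPM that was 5.59 without replicate 3. Hoxd4 had 1.47, 2.15 and 4.22 CPM, Hoxd1 was the third expressed Hox gene, and 22 were not detectable. In the Nkx family Nkx2-4 led with 9.9, 7.28 and 20.9 CPM, and in the GATA family Gata3 with 9.9, 6.99 and 4.14 CPM. Pax6, an eye and forebrain factor, had 9.59, 9.43 and 4.95 CPM and Pax3, the next of the 9, had 0.102, 0.0943 and 0.237 CPM. En1 of the midbrain had 6.91, 8.63 and 17.3 CPM and Lhx2 of the forebrain 2.19, 2.0 and 7.91 CPM, both highest in replicate 3, without which the mean of Lhx2 fell from 4.03 to 2.09 CPM.

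The labels name the cells neural progenitors, and the data go with this label only in part. Of 23 neural progenitor markers, 17 were expressed (73.9%, against 49.3% of protein-coding genes), and none was undetectable. The intermediate filament gene Vim had 184, 217 and 278 CPM and Nes 42.8, 49 and 72.9 CPM. Sox3 had 55, 54.6 and 31.2 CPM, Sox2 44.3, 47.6 and 28.5 CPM, Cdh2, the cadherin of neural epithelium, 40.1, 41.4 and 54.3 CPM, and Msi1 35.5, 36.9 and 32.1 CPM. The 6 that were low include defining markers of neural epithelium and radial glia. Sox1 had 0.633, 0.89 and 0.194 CPM, Hes5, a Notch target, 0.138, 0.443 and 0.278 CPM, Sox9 0.447, 0.662 and 0.52 CPM, Fabp7 of radial glia 0.412, 0.545 and 0.571 CPM, Sox21 0.163, 0 and 0.0555 CPM and Notch1 0.92, 2.28 and 2.5 CPM.

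Of 18 markers of pluripotent cells, 12 were expressed (66.7%). The list, which holds Pou5f1, summed to 3826, 4032 and 2786 CPM. Pou5f1, Tdgf1 and Utf1 made up most of it, and the other 15 members summed to 581, 566 and 527 CPM. Tdgf1 (Cripto), the Nodal co-receptor, had 507, 522 and 663 CPM. Utf1, a chromatin protein of undifferentiated cells, had 542, 496 and 212 CPM, lowest in replicate 3. Lin28a, which blocks let-7 processing, had 300.2, 284 and 247 CPM and its relative Lin28b 19.8, 20.6 and 31.4 CPM. The DNA methyltransferase gene Dnmt3b had 75.5, 81.3 and 89.3 CPM, Sall4 70.8, 67.7 and 55 CPM, Nanog 57.3, 46.9 and 70.1 CPM and Fgf5, a marker of the primed epiblast, 28.3, 39.3 and 25.4 CPM.

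Most genes of the naive, preimplantation state within the same list were low or absent. Zfp42 (Rex1) was at 0 in all 3 libraries. Esrrb had 1.03, 1.19 and 0.512 CPM, Tfcp2l1 0.452, 0.305 and 0.777 CPM, Dppa3 0.55, 0.867 and 0.468 CPM and Dppa5a 0.598, 1.97 and 0.117 CPM. Klf4 and Klf2 were expressed, with 7.86, 1.95 and 1.02 CPM and 8.11, 11.8 and 3.78 CPM. All 16 genes of a list of chromatin regulators that pluripotent cells share with other embryonic cells were expressed, led by Hmga1 and Lin28a, with Ezh2 of Polycomb at 124, 114 and 97.9 CPM and Dnmt3a at 67.3, 88.8 and 145 CPM. No name other than that of the line is given here to this mixture of markers.

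Windows of 250 bases before the start of each gene's Ensembl canonical transcript in GENCODE vM39, which did not enter the choice of genes, were compared by level. A CpG observed over expected ratio above 0.6, a usual limit for CpG islands, was found in 63.8% of 10680 expressed protein-coding symbols, in 29.1% of those that were low and in 6.62% of 7073 that were not detectable. Over all 21647 it was 38.9%. Among expressed genes the share was 73.4% at 100 CPM or more and 54.7% under 10 CPM. Letters of the TATA box (TATAAA) and the GC box (GGGCGG) were counted anywhere in the window, on either strand. TATAAA stood in 6.54% of expressed and 21.2% of undetectable genes (11.9% of all), and GGGCGG in 52.8% and 11.4% (36.4% of all). The median GC content of the windows was 57.6% in expressed and 45.6% in undetectable genes (53.2% in all). The part of base composition in the shares of these motifs was not tested. Expressed transcription factors had a CpG ratio above 0.6 in 59.6%, against 35.7% of undetectable ones. These are descriptions of annotated starts, which need not be the starts used in these cells.

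The windows of 5 genes are printed because they show where abundant genes follow this order and where they depart from it. They are those of the highest nuclear gene, Eef1a1, of the 2 highest factors, of Lin28a, and of Ins2, which was not detectable. The windows of Eef1a1, Hmga1 and Ins2 lie wholly or in part within the outer bounds of their genes, since other transcripts start further upstream, and at most 22 of their bases are exonic in such transcripts. Letters come from GRCm39, 5′ to 3′ on the strand of the gene, and capitals mark every CpG. The CpG ratio was 1.07 in Hmga1, 0.652 in Eef1a1, 0.337 in Pou5f1, 0.208 in Lin28a and 0.115 in Ins2. Pou5f1 and Lin28a, with 6 and 4 CpG dinucleotides, lay below the median of the low genes, 0.393, although their levels were high.
Eef1a1 (chr9:78389007-78389256, reverse strand): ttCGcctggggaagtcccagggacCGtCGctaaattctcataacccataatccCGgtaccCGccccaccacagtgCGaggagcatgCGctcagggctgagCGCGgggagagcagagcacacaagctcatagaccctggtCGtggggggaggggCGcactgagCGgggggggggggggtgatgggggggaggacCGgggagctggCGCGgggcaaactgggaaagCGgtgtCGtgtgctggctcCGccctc
Hmga1 (chr17:27775221-27775470, forward strand): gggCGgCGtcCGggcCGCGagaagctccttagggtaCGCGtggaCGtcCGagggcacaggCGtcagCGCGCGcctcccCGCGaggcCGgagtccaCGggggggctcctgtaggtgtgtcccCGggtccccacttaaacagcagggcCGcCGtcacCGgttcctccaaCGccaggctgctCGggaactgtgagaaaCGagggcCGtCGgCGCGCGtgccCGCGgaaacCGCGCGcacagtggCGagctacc
Pou5f1 (chr17:35816539-35816788, forward strand): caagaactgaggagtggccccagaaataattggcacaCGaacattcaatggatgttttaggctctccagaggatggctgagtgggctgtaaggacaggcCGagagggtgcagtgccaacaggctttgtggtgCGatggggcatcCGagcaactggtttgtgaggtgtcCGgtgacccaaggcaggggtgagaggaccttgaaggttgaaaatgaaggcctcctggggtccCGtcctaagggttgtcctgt
Lin28a (chr4:133746174-133746423, reverse strand): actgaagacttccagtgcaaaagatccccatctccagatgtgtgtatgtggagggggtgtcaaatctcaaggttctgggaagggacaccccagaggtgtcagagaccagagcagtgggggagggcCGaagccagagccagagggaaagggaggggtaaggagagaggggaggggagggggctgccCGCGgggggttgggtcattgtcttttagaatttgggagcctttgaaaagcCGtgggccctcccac
Ins2 (chr7:142233464-142233713, reverse strand): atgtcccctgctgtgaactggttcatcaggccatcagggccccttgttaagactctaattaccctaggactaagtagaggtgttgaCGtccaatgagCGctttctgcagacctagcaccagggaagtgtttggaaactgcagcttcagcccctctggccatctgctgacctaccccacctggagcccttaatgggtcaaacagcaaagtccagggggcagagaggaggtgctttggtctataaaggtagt

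Regional lists of the brain were small in the libraries. Of 88 genes in 8 regional lists, 18 were expressed and 31 were not detectable, and no list reached 50%. The roof plate and dorsal list had 5 of 13 expressed, led by Zic1 and with Bmp7 and Bmp4 among them. The midbrain and isthmus list had 4 of 12, which were Otx2, Fgf8, En1 and En2. The hindbrain list had 4 of 14, led by Egr2, an early growth response gene that serum also induces, with 61.5, 37.5 and 23.7 CPM. The telencephalic list had 2 of 13, Eomes with 50.6, 53 and 38.5 CPM, which is a gene of early mesoderm and trophoblast too, and Lhx2.

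Ventral, hypothalamic and spinal lists were the emptiest. The floor plate and ventral list had 1 of 11 expressed, Nkx6-2, with 1.62, 2.15 and 3.13 CPM, and the diencephalic list had 2 of 9, Tcf7l2 and Irx1. None of 7 genes of the eye field and hypothalamus and none of 14 spinal cord genes were expressed, and 10 of the 14 were not detectable. Hoxb9 was the highest gene of the spinal list, with 0.661, 0.572 and 3.17 CPM.

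Programs of neurons and glia were mostly low. Of 19 proneural genes and markers of newborn neurons, 4 were expressed: Stmn2 with 74.2, 77.9 and 43.3 CPM, Tubb3 with 25.9, 23.6 and 37.3 CPM, Insm1 and Elavl3. The proneural factor genes Neurog2, Neurod2, Neurod4 and Neurod6 were not detectable. Of 23 markers of mature neurons 8 were expressed, led by the neurofilament genes Nefm (50.04, 38.9 and 10.3 CPM) and Nefl (38.9, 41.3 and 9.01 CPM), which were lowest in replicate 3. The transmitter genes Slc17a6, Slc17a7, Gad2, Slc32a1, Th, Chat and Tph2 were low or not detectable.

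Of 12 astroglial markers 2 were expressed, the glutamate transporter gene Slc1a3 with 12.9, 12.3 and 19.7 CPM and the enzyme gene Aldoc. The oligodendrocyte list had 2 of 13, the membrane-bound factor gene Myrf with 71.2, 79.2 and 83.7 CPM and Mbp with 1.56, 2.12 and 4.99 CPM, while Olig2, Sox10 and Mog were not detectable. Ependyma had 1 of 7, Foxj1. Choroid plexus had 1 of 6, the folate receptor gene Folr1, with 144, 143 and 40.4 CPM, while Ttr, its defining gene, was at 0. Microglia and macrophages had 1 of 13, Cd68 with 3.8, 2.17 and 3.88 CPM, and P2ry12 and the 3 C1q genes were at 0.

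Over 32 lineage lists, 90 of 364 genes were expressed (24.7%) and 128 were not detectable (35.2%), against 49.3% and 32.7% of protein-coding genes. Only the neural progenitor and the pluripotent lists passed 50%, and 7 lists had no expressed member, namely erythroid, hepatocyte, intestine, lung, melanocyte, pancreas and retina with lens. In the hepatocyte list 5 of 10 genes were at 0 in every library, in the lung list 5 of 7 and in the pancreas list 6 of 11. The hepatocyte list summed to 0.584, 0.282 and 0.0802 CPM.

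Early mesoderm, trophoblast, placode and neural crest had some members at higher levels. Of 12 genes of paraxial and early mesoderm 3 were expressed, T, Eomes and Tcf15, and 6 were not detectable. Of 9 trophoblast genes 4 were expressed, Eomes, Tfap2c with 24.6, 22.4 and 5.65 CPM, Elf5 with 15.8, 19.2 and 14.3 CPM and Ascl2. Of 10 placode genes 5 were expressed, with Foxi3 at 19.2, 24 and 10.8 CPM and Eya1 at 15.3, 18.6 and 9.69 CPM ahead of Gata3, Six4 and Eya2. Of 12 neural crest genes 6 were expressed, Foxd3, Msx1, Snai1, Ets1, Tfap2a and Snai2, while Sox10 was not detectable. Foxd3, which is also a factor of the epiblast, was highest in replicate 3 with 5.91, 10.2 and 22.9 CPM, a mean of 13.02 that was 8.06 without it.

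Epithelial and mesenchymal genes were found together. Of 16 genes of surface epithelium 5 were expressed, Epcam with 94.3, 79.7 and 148 CPM, Cdh1 with 9.23, 9.28 and 10.7 CPM, Grhl2, Cldn6 and Dsp. No gene of 53 keratins reached 1 CPM in every library and 46 were not detectable. Of 12 mesenchymal genes 3 were expressed, fibronectin (Fn1) with 57.7, 67.9 and 43.1 CPM, Twist1, and decorin (Dcn) with 14.4, 15.6 and 4.06 CPM, and Col1a1, Col1a2 and Col3a1 stayed under 1 CPM. Of 44 collagen genes 9 were expressed, led by Col18a1 with 108, 96.4 and 111 CPM. Cartilage and bone had 3 of 11, among them Alpl, an alkaline phosphatase that embryonic stem cells also carry, with 96.8, 91.3 and 98.1 CPM.

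The remaining lineage lists had few or single members on. Pericytes and smooth muscle had 4 of 9, Tagln, Acta2, Mcam and Des. Adipocyte (Fabp4 and Cebpa), cardiac (Gata4 and Mef2c), definitive endoderm (Cxcr4 and Gata4) and kidney (Wt1 and Six2) lists had 2 each. Lymphoid, skeletal muscle, endothelial and germ cell lists had 1 each. These were the kinase gene Lck with 20.4, 22.7 and 29.4 CPM, Des, the VEGF receptor gene Flt1 with 5.37, 5.43 and 2.12 CPM, and Prdm1 with 27.6, 26.8 and 5.58 CPM. Large families of late tissues were almost silent, with 1 of 1193 olfactory receptors (Or2y16), 0 of 353 vomeronasal receptors, 0 of 38 taste receptors, 0 of 70 defensins and 0 of 57 keratin-associated proteins expressed.

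**Figure D4:**
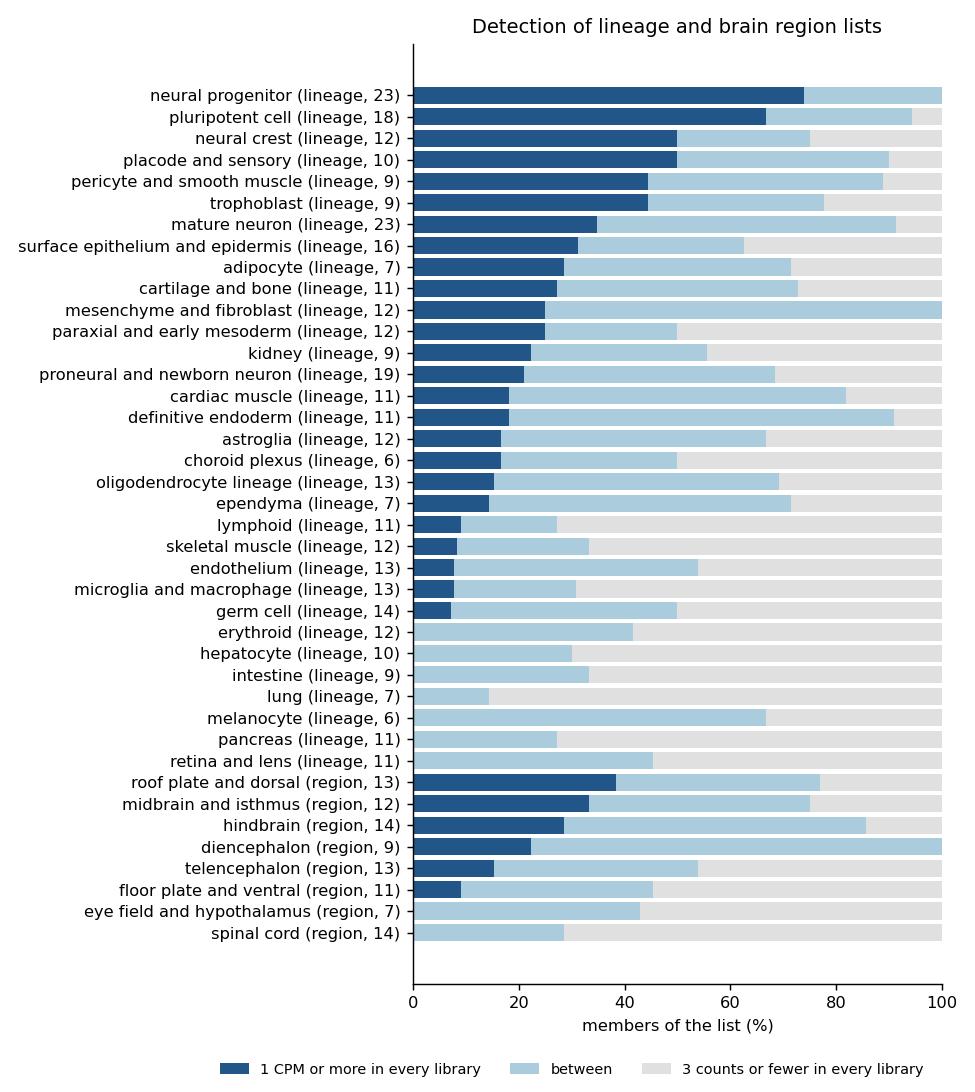
Share of the members of 32 lineage and 8 brain region lists, in percent, that had 1 CPM or more in every WT NO library (dark), at most 3 counts in every library (grey) or lay between (light). The number after each name is the number of genes in the list. Neural progenitor and pluripotent lists exceed 50%, and 9 lists have no dark part.

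Genes of signalling were described by their roles. Of 186 ligands 74 (39.8%) were expressed and of 250 receptors 122 (48.8%), against 49.3% of protein-coding genes, and 38 and 42 were not detectable. Summed over all ligands the level was 4791, 4880 and 4687 CPM, and over all receptors 2026, 2073 and 2059 CPM. Most of the ligand sum belonged to Mif, a cytokine made by many cell types, with 3209, 3212 and 2918 CPM.

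In the family of TGF-beta and BMP, 9 of 33 ligands and 10 of 14 receptors were expressed. The highest ligand was Gdf3, a relative of Nodal from the early embryo, with 239, 224 and 146 CPM. Nodal (ENSMUSG00000037171, chromosome 10, 61253587 to 61261117) itself had 66, 57.9 and 109.7 CPM, highest in replicate 3 as was its antagonist Lefty1. The receptors were led by the activin and Nodal receptor gene Acvr2b with 22.1, 27.3 and 34.4 CPM, Bmpr1a with 24.6, 24.2 and 34.7 CPM and Tgfbr1 with 26.4, 28.4 and 23.3 CPM. With Tdgf1 and Foxh1 above, ligand, receptor, co-receptor and nuclear partner of Nodal were all expressed.

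In the FGF family 6 of 22 ligands and 4 of 7 receptors were expressed. Fgf8 of the isthmus and the streak had 53.6, 63.9 and 35.1 CPM, and after Fgf5 came Fgf13, which stays inside the cell, with 31, 36.8 and 24.9 CPM. The receptor gene Fgfr1 had 56.9, 53.1 and 48.2 CPM, above Fgfrl1 with 18.2, 18.4 and 23.4 CPM and Fgfr2 with 12, 13 and 7.06 CPM in each library. Among Wnt genes, receptors were more often expressed (16 of 19) than ligands and R-spondins (8 of 23). The highest ligand was Wnt3 with 9.07, 7.91 and 15.4 CPM, followed by Wnt7a and Wnt11, and the co-receptors Ptk7 with 71.1, 74.3 and 105 CPM and Ryk with 54.4, 62.1 and 50.3 CPM and the receptor Fzd10 with 61, 64.6 and 41.4 CPM led the receptors.

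For Hedgehog the receiving side was on without a ligand. None of the 3 ligands was expressed, with Shh at 0.074, 0 and 0 CPM, Dhh at 0, 0 and 0.0994 CPM and Ihh at 0.0865, 0.192 and 0.44 CPM. Of 7 receptors 4 were expressed, with the transducer Smo at 33.2, 37.4 and 40.7 CPM and Ptch1 at 10.7, 12 and 7.0 CPM. In the Notch pathway, Notch2 with 25.1, 28.5 and 22.5 CPM and Notch3 with 18.3, 19.6 and 14.9 CPM were the expressed receptors, with Notch1 and Notch4 low. The ligands were Jag2 with 8.55, 11.8 and 8.58 CPM, Jag1 with 4.92, 7.14 and 6.23 CPM and Dll1 with 3.15, 3.13 and 2.67 CPM, 3 of 7 in the list.

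Growth factor lists all had expressed ligands and expressed receptors, in differing shares. Midkine (Mdk) had 387, 465 and 501 CPM and its relative pleiotrophin (Ptn) 3.9, 3.58 and 4.15 CPM, while their receptors were led by Sdc3 with 4.39, 3.98 and 5.36 CPM and Ptprz1 with 1.36, 1.4 and 1.22 CPM. Igf2 was the only one of 4 insulin-like ligands expressed, with 8.2, 6.51 and 22.8 CPM, a mean of 12.5 that was 7.35 without replicate 3, and all 3 receptors were expressed, Igf2r, Insr and Igf1r. Vegfb with 67.7, 57.8 and 74.4 CPM and Vegfa with 33.1, 26.2 and 26.6 CPM led the ligands of the PDGF and VEGF list, followed by Pdgfa, and Flt1 and Flt4 were its expressed receptors. In the EGF list Tgfa and Hbegf were the expressed ligands and Erbb2, Egfr and Erbb3 the expressed receptors, each under 8 CPM. Of 8 neurotrophins and GDNF ligands, Gdnf led with 9.58, 12.5 and 1.45 CPM, lowest in replicate 3, ahead of Nrtn by mean, which had 3.49, 2.92 and 3.73 CPM. Of 10 receptors only Sort1 (41.9, 46.6 and 45.4 CPM) and Ntrk2 were expressed.

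Ephrin and semaphorin genes were expressed in larger shares than the 49.3% of all protein-coding genes, and slit and netrin genes in smaller ones. Ephrins had 7 of 8 ligands and 9 of 14 receptors, led by Efnb1 with 84.1, 83.2 and 35.4 CPM, Efnb2 and Efna5, and by Epha2 with 21, 16.6 and 26.5 CPM, Ephb4 and Ephb2. Semaphorins had 16 of 20 ligands and 7 of 11 receptors, with Sema3a at 13.7, 13.6 and 16.9 CPM and Plxnb2 at 41.4, 41.3 and 44.6 CPM, ahead of Plxna1 and Plxna3. Sema6a had 3.62, 4.75 and 31.4 CPM, a mean of 13.3 that was 4.18 without replicate 3. Slits and netrins had 3 of 7 ligands, Ntn1, Ntn3 and Slit2, all under 6 CPM, and 4 of 10 receptors, led by Unc5b with 54.3, 50.7 and 40.05 CPM, Neo1 with 25.7, 30.1 and 22 CPM and Unc5a.

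Of 15 nuclear receptors for retinoids, thyroid hormone and steroids, 8 were expressed. Rara and its partners Rxrb (28.3, 29.9 and 35.2 CPM) and Rxra (13.2, 15 and 12.7 CPM) led them. Of 29 cytokines and chemokines 9 were expressed, with Cx3cl1 at 132, 143 and 69.6 CPM and Cxcl12 at 24.7, 21.6 and 25.9 CPM after Mif. Of the 27 receptors in the same list, which also holds the receptor tyrosine kinase gene Tyro3, 16 were expressed. Cntfr had 64.3, 69.4 and 22.2 CPM, lowest in replicate 3, Lifr 27.5, 25.8 and 22.2 CPM and Tyro3 15.7, 15 and 23.1 CPM. Receptors for matrix were led by the laminin-binding integrin chain Itga6 with 156, 168 and 99.5 CPM, Itgb1 with 114, 115 and 127 CPM and Dag1 with 84.7, 91.6 and 95.1 CPM, 9 of 20 expressed.

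Of 60 neurotransmitter receptors 13 were expressed and 20 were not detectable. The serotonin receptor gene Htr7 had 32.3, 30.6 and 23.9 CPM and the kainate receptor gene Grik5 8.0, 12.9 and 11 CPM. Of 16 receptors for lipid mediators 8 were expressed, led by the lysophosphatidic acid receptors Lpar4 with 24.8, 22.5 and 30.4 CPM, Lpar2 with 11.2, 10.7 and 9.03 CPM and Lpar1.

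**Figure D5:**
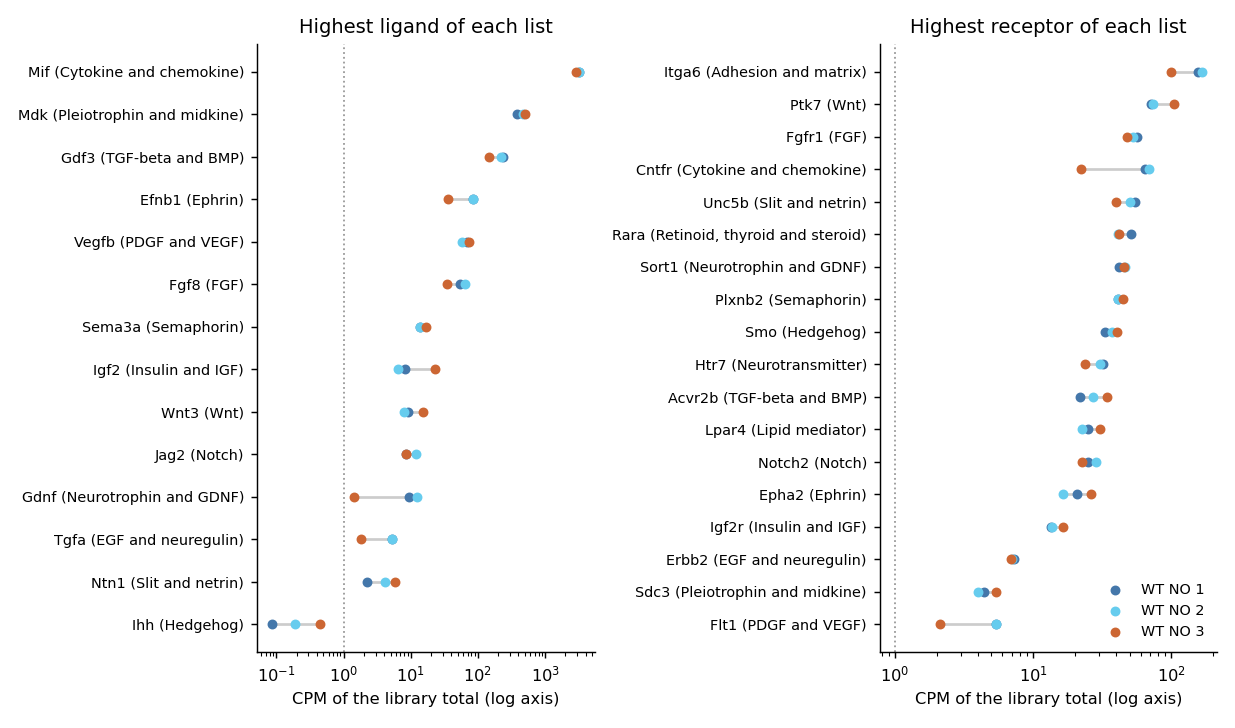
Levels of the highest ligand (left) and the highest receptor (right) of each signalling list in the 3 WT NO libraries, in CPM on log axes, with the name of the list in brackets. The dotted line marks 1 CPM. The highest Hedgehog ligand, Ihh, is the only gene plotted that lies under this line.

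Genes of dividing cells were expressed throughout. All 19 genes of G1/S and replication and all 18 genes of G2/M were expressed, with medians of 88.1 and 99.2 CPM. Top2a had 429.7, 408 and 539 CPM, Cdk1 252, 258 and 457 CPM, highest in replicate 3, and Pcna 281, 289 and 398 CPM. Of 13 G1 cyclins and inhibitors 10 were expressed, with Cdk4 at 816, 833 and 653 CPM, Ccnd3 at 99.5, 102 and 81 CPM and the inhibitor gene Cdkn2a at 52, 53.5 and 82 CPM. Rb1, the retinoblastoma gene, was among the 3 that were low, with 0.614, 0.941 and 1.02 CPM.

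Trp53 (ENSMUSG00000059552, chromosome 11, 69469669 to 69482701), which encodes p53, was low, with 0.927, 0.723 and 0.459 CPM. Of the 16 genes in the list of Trp53 and its targets 14 were expressed, with Bax at 128, 126 and 110.2 CPM, Mdm2 at 48.4, 46.7 and 48.8 CPM and Cdkn1a at 6.27, 4.45 and 4.21 CPM. The gene count does not separate a full from a truncated transcript. All 20 genes of glycolysis and sugar transport were expressed, with Pkm at 2656, 2973 and 2728 CPM and Ldha at 652, 696 and 1018 CPM, and Slc16a3, a lactate exporter, was highest in replicate 3 at 74.5, 89.9 and 357 CPM. All 16 genes of protein folding in the endoplasmic reticulum were expressed, with Calr at 734, 773 and 289.5 CPM, lowest in replicate 3, Hspa5 at 446, 519.8 and 403 CPM, and the stress-induced Ddit3 lowest of the list by mean at 5.05, 8.2 and 10.8 CPM. Dnajb9, which had 11.6, 10.00 and 5.84 CPM, was below it in replicate 3.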

How the data were processed

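RNA-Seq libraries of polyadenylated RNA were made by the authors and processed with nf-core/rnaseq (STAR and Salmon) on GRCm39. Per the labels and its name, the table deposited by the authors gives an estimated count for each gene and library, scaled from TPM, so that values are proportional to TPM within a library and are not normalized between libraries. In 4032 genes above 0 in a single WT NO library, longer genes had smaller values (Spearman's rho −0.58 with exonic length, across genes, which are not independent replicates), as such scaling gives. A deposited count is therefore not a whole fragment, and the limit of 3 counts lies higher in number of fragments for long genes than for short ones. Columns WT1 to WT3 of the table were matched to the WT NO labels by genotype and replicate number.

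Each column was divided by its total and multiplied by 1000000, with Python 3.11.15, pandas 2.3.3 and numpy 2.4.6, and the procedure was tested on simulated data. No test was made, since a single group was described. The SD covers the spread between 3 passages only, so that reads shared by near-identical copies are not part of it. Of symbols on more than 1 row (147), the row with the highest mean was used. Biotypes, positions and start sites came from GENCODE vM39, in which 1.23% of gene IDs had no match. Lists of genes (67) and factor families were matched by symbol, and 2 list symbols, Tbxt (in the table as T) and Tf, had no match. The members and lists were chosen with earlier results of these data known.

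The genes named were the 30 of highest mean; the 30 highest factors outside the Zfp, Zbtb and Zscan family and the 2 highest of each family; the 3 highest ligands and receptors of each list; up to 6 expressed members of each other list; the 10 with the largest and smallest CV; and Faf2. Some of these genes are not reported here. Others, among them members that were low or not detectable, were chosen after their values were seen. Alternatives were TMM factors from edgeR 4.0.16 in R 4.3.3 over rounded counts of all 12 libraries, totals without mitochondrial genes, limits of 0.5 and 2 CPM, 10 counts or any value in every library, the mean of the libraries, and each library left out.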

Additional observations from a re-analysis of the deposited data

How the results depend on the processing

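The number of expressed genes, 11719, was 10604 at a limit of 2 CPM, 12803 at 0.5 CPM, 11589 with TMM factors, 11903 without mitochondrial genes in the total, 12892 by the mean of the libraries, 13293 with at least 10 counts and 16989 with any value above 0 in every library. Leaving out each library gave 11951 to 12028. Factors (710) ran from 605 at 2 CPM to 776 at 0.5 CPM, ligands (74) from 55 to 81, receptors (122) from 103 to 140 and lineage list members (90) from 74 at 2 CPM to 116 by the mean of the libraries. The neural progenitor list had 17 or 18 of 23 members, and the pluripotent list ran from 10 members at 2 CPM to 14 at 0.5 CPM. The share of the 100 most abundant genes, 40.1% on average, was 34.4% when mitochondrial genes were left out of genes and total, and 39.5% to 40.5% without each library.

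None of the 320 genes given by the naming rule moved by more than 1.5 times with TMM factors (0.830 to 0.969 times the mean), and none of 311 without mitochondrial genes in the total (1.12 to 1.16 times). Leaving out a library can raise a mean by at most 1.5 times, so only genes high in that library can pass this limit. Genes low in replicate 3, such as Lef1 with 63.9, 86.8 and 15.7 CPM, cannot pass it when that replicate is left out. Without replicate 3, 24 of the 320 moved by more than 1.5 times. Their means without it were 0.892 CPM in Tubb4a, 5.78 in Cthrc1, 3.89 in Cyba, 7.11 in Lefty1, 3.54 in Anxa2, 3.04 in Hspb8, 2.64 in Mfap4, 4.01 in Upp1, 2.43 in Gas6 and 2.81 in Aldoc. They were 6.84 CPM in Tagln, 4.90 in Acta2, 4.18 in Sema6a, 1.84 in Dlx4, 0.352 in Ngfr, 0.285 in Kdr, 5.59 in Hoxb13, 2.09 in Lhx2, 7.35 in Igf2, 8.06 in Foxd3, 1.84 in Mbp and 2.07 in Des, and Ihh and Dhh were near the limit of detection. Of genes named outside the rule, Slc16a3 went from 173.7 to 82.2 CPM without replicate 3, Lefty2 from 6.59 to 0.890 and Hoxb9 from 1.47 to 0.616. Klf4 went from 3.61 to 1.49 CPM without replicate 1. Without replicate 2, Grhl2 went from 2.73 to 1.77 CPM and Mest from 98.8 to 50.4. Other genes named in the text that moved by as much had means under 1 CPM. No paired analysis was possible because a single group was described with no test. Counts under about 0.1 CPM are at the limit of detection at this depth.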

Other observations

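Genes outside the lists were chosen here after their values were seen. The long noncoding RNAs with the highest means after ENSMUSG00000121166 were Bc1 (1482, 1744 and 1116 CPM), Gm47283 on chromosome Y (1304, 1755 and 1277 CPM) and Gm10076 (952, 1124 and 980.3 CPM). The snoRNA host genes Snhg1 (348, 375 and 454 CPM), Gas5 (227, 255 and 228 CPM) and Snhg8 (153, 161 and 179.7 CPM) followed among the 12 highest.

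Replicate 3 was far below both other libraries in Mest with 95.4, 196 and 5.35 CPM, in Peg3 with 103, 137 and 15.4 CPM and in Enpp2, which makes lysophosphatidic acid, with 461, 523 and 80.4 CPM. The Y-linked genes Eif2s3y (35.1, 34.1 and 7.51 CPM), Ddx3y (17.1, 18.2 and 3.96 CPM), Uty (9.64, 9.48 and 2.14 CPM) and Kdm5d (7.41, 6.89 and 1.83 CPM) were all lowest there. Their X-linked relatives Eif2s3x (266, 257 and 262 CPM), Ddx3x (471, 546 and 536 CPM) and Kdm6a (56.2, 63 and 77.2 CPM) were not, while Kdm5c had 34.8, 35.3 and 5.86 CPM. Gm47283, named above, had 1277 CPM in replicate 3, against 1304 CPM in replicate 1 and 1755 CPM in replicate 2. It is annotated on chromosome Y from 90796007 to 90833677, far from the Y-linked genes above, which lie between 897569 and 1286663. Whether its reads come from chromosome Y alone was not tested. Xist was under the limit of detection in all 3 libraries. The cause was not tested.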
